A study of Mus musculus with 10 samples.

Results

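Nilotinib is an ATP-competitive inhibitor made against the ABL kinase of the Bcr/Abl fusion protein, and it holds the kinase in its inactive conformation. The same binding mode reaches a small set of other proteins. The 9 genes described here encode proteins that nilotinib is known to bind: the ABL kinases Abl1 and Abl2, the class III receptor tyrosine kinases Pdgfra, Pdgfrb, Kit and Csf1r, the collagen receptors Ddr1 and Ddr2, and Nqo2, a flavin-dependent quinone reductase that is no kinase. They were taken by name from 19938 genes that have a probeset of their own on the array. No rule on their measured values was used, but earlier results of these data were known when they were chosen. Each was read from its probeset with 1 gene symbol. All 9 had exactly 1 such probeset, so no choice between probesets arose.

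The data are from gamma-irradiated wild type mouse embryonic fibroblasts (MEFs), which serve as a feeder layer that no longer divides. All dishes were kept in medium with murine IL-3 and RNA was taken on day 9. MEFs + ALL + nilotinib (3 arrays) and MEFs + ALL + DMSO (1 array) shared their dishes with 8093 cells, pro-B acute lymphoblastic leukemia (ALL) cells from a Bcr/Abl transgenic mouse, kept apart by a Transwell filter that lets soluble molecules pass, and were given 16 nM nilotinib or its solvent DMSO. MEFs + nilotinib (3 arrays) and MEFs + DMSO (3 arrays) received the same dose or the solvent without leukemia cells. The study's methods plate the triplicates as separate dishes of MEFs, with no separate embryo isolates named for them, and the methods set aside the other MEFs + ALL + DMSO samples because ALL cells had entered them. The p-values therefore measure the spread between dishes, and the lone MEFs + ALL + DMSO array was assumed to vary like the other groups.

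In fibroblasts these proteins have familiar roles. The PDGF receptors take up platelet-derived growth factors and drive mesenchymal growth and migration, the discoidin domain receptors sense collagen fibres, and the ABL kinases relay adhesion and growth factor signals to the actin cytoskeleton. KIT, the receptor of stem cell factor, belongs to mast cells, melanocytes and haematopoietic progenitors, and CSF1R, the receptor of CSF-1 and IL-34, belongs to macrophages. NQO2 reduces quinones beside its relative NQO1. The arrays measured transcripts alone, so neither the amount of these proteins nor their kinase activity enters the values below.

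Of the 9 genes, 8 were detected in all 4 groups. Detection was set on each array by the probesets of odorant and vomeronasal receptors, genes that fibroblasts do not use. The array carried 1210 such probesets, and a gene counted as detected in a group when every array of the group lay above their 95th percentile. That line lay at a log2 signal of 6.27, 6.43 and 6.23 on the MEFs + ALL + nilotinib arrays, 6.35, 6.28 and 6.40 on the MEFs + nilotinib arrays, 6.16 on the MEFs + ALL + DMSO array and 6.33, 6.38 and 6.42 on the MEFs + DMSO arrays. Pdgfrb and Ddr2 lay from 5.32 to 5.52 and from 5.33 to 5.55 log2 units above the line of their array, Abl1 from 3.97 to 4.35, Ddr1 from 3.17 to 3.46, Abl2 from 2.69 to 3.02, Nqo2 from 2.47 to 2.98, Csf1r from 2.00 to 2.28 and Pdgfra from 1.18 to 2.11. These distances place each gene against background and do not rank the genes against each other, since every probeset has its own response. The same 8 genes were detected with the 99th percentile as the line and with the median of all probesets as the line.

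**Figure D1:**
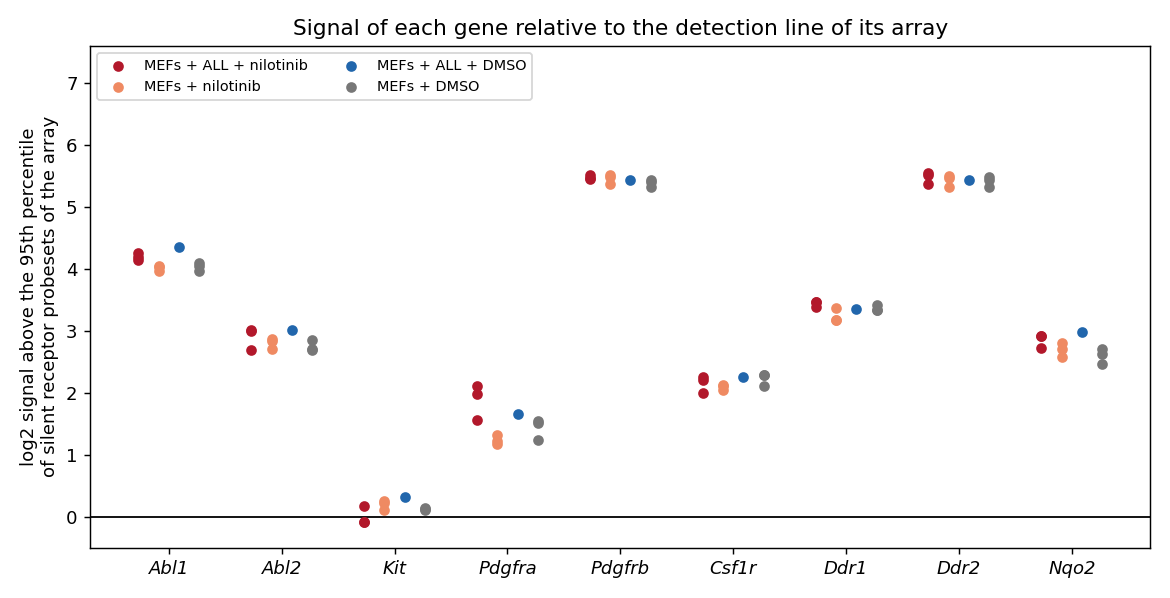
Each point is 1 array; the y axis gives the log2 signal of the gene minus the 95th percentile of the silent receptor probesets on that array, and colours mark the 4 groups. Kit sits on the line (-0.09 to 0.31), and the other 8 genes lie at least 1.18 log2 units above it on all 10 arrays.

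Kit (probeset 10522530) was the exception. Its signal was 6.18, 6.34 and 6.42 in MEFs + ALL + nilotinib, 6.45, 6.49 and 6.64 in MEFs + nilotinib, 6.47 in MEFs + ALL + DMSO and 6.43, 6.52 and 6.54 in MEFs + DMSO. The first and second MEFs + ALL + nilotinib arrays were each 0.09 below their detection line, while the other 8 arrays lay above theirs by no more than 0.31. By that line Kit counted as detected in MEFs + nilotinib, MEFs + ALL + DMSO and MEFs + DMSO, and not in MEFs + ALL + nilotinib. With the 99th percentile as the line, Kit was below it on all 10 arrays, by 0.39 to 0.78 (differences of -0.39 and -0.78). Markers of the cells that usually carry KIT were measured beside it: 0 of 7 mast cell markers (Cpa3, Tpsb2, Mcpt4, Fcer1a, Ms4a2, Hdc and Cma1) were detected in any group, with summed signals of 272 to 316 in MEFs + ALL + nilotinib, 260 to 302 in MEFs + nilotinib, 294 in MEFs + ALL + DMSO and 279 to 305 in MEFs + DMSO. Of 6 melanocyte markers, 2 were detected in MEFs + ALL + nilotinib and 3 in each other group. Mlana and Sox10 were detected in every group and Pmel in all but MEFs + ALL + nilotinib, while the pigment enzyme genes Tyr, Dct and Tyrp1 were detected in none. By the stricter line, the Kit signal lay within that of the silent genes.

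Csf1r (probeset 10456071), by contrast, was detected on all 10 arrays, together with the markers of the cell that normally carries it. All 11 macrophage markers (among them the macrophage surface receptor gene Adgre1, the lysozyme gene Lyz2 and the complement genes C1qa and C1qb) were detected in all 4 groups. Their summed signal was 7478 to 8217 in MEFs + ALL + nilotinib, 6828 to 8063 in MEFs + nilotinib, 7070 in MEFs + ALL + DMSO and 6807 to 7695 in MEFs + DMSO. The 10 fibroblast markers were detected in all 4 groups too, with sums of 59086 to 60044 in MEFs + ALL + nilotinib, 56618 to 62804 in MEFs + nilotinib, 53066 in MEFs + ALL + DMSO and 62551 to 63991 in MEFs + DMSO. In RNA from whole dishes, fewer cells of a type and less RNA per cell cannot be told apart, and which cells of the layer held the Csf1r transcript was not tested.

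The libraries differed in a further way that touches what follows. The single MEFs + ALL + DMSO array stood apart from the other 9 on the first principal component, which held 30.8% of the variance, and it carried transcripts of B-lineage cells. The second MEFs + ALL + nilotinib array stood apart on the second component, which held 18.9%. Of 11 measured pro-B and B cell markers, 8 were detected on the MEFs + ALL + DMSO array, among them Cd79a, Cd79b, Vpreb1 and Pax5. Rag2, Blnk and Cd22 were detected neither there nor in any other group. Each other group, with or without leukemia cells, had 2 of the markers detected. The summed signal of this list was 672 to 838 in MEFs + ALL + nilotinib, 692 to 804 in MEFs + nilotinib, 4625 in MEFs + ALL + DMSO and 748 to 824 in MEFs + DMSO. The 8 leukocyte markers summed to 4149 to 4704 in MEFs + ALL + nilotinib, 3476 to 4044 in MEFs + nilotinib, 10926 in MEFs + ALL + DMSO and 3456 to 3802 in MEFs + DMSO. Every comparison below that uses the MEFs + ALL + DMSO array holds this difference within it, and its part in those results was not tested. The leukocyte sums of all 3 MEFs + ALL + nilotinib arrays also lay above those of MEFs + nilotinib and MEFs + DMSO. Of the 8 leukocyte markers, 1 rose over MEFs + DMSO (0.74, limma adjusted p = 0.0266), where 0.503% of all probesets rose, and 0 were called over MEFs + nilotinib. The part of this smaller difference in the comparisons below was not tested either.

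**Figure D2:**
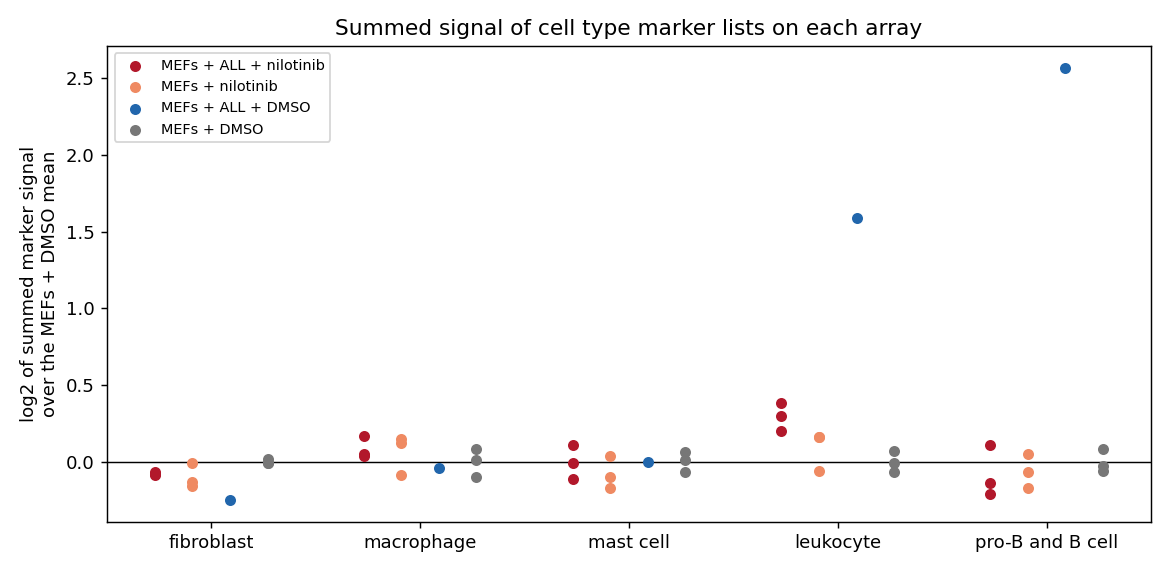
Points give, for each array, the log2 of the summed signal of a marker list over the mean of the 3 MEFs + DMSO arrays (y axis), by list (x axis) and group (colour). The leukocyte and the pro-B and B cell lists stand far above the rest on the MEFs + ALL + DMSO array alone (summed signals of 10926 and 4625), while the mast cell list, of which 0 of 7 genes were detected, shows no such step.

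Across the 4 groups, no member of the set passed the test. With limma on the deposited log2 values and adjustment over all 35557 probesets, 0 of 9 genes were called in MEFs + ALL + nilotinib over MEFs + nilotinib, where 0.186% of all probesets were called, and 0 of 9 in MEFs + ALL + nilotinib over MEFs + DMSO, where 0.627% were. In MEFs + nilotinib over MEFs + DMSO 0 of 9 genes and 0% of the probesets were called. The comparisons with the lone array called 0 of 9 genes beside 4.34% of the probesets (MEFs + ALL + nilotinib over MEFs + ALL + DMSO) and beside 10.3% (MEFs + ALL + DMSO over MEFs + DMSO). The test for any difference over the 4 groups called 0 of 9 beside 5.94% of the probesets. At an unadjusted p under 0.05, limma gave 3, 2, 1, 2, 1 and 1 of the 9 genes in these 6 tests, beside 9.27%, 16.2%, 11.2%, 17.7%, 27.9% and 23.1% of all probesets in the same order.

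The differences were also small in size. Over the 9 genes the log2 difference had a median of 0.06 and ran from -0.22 to 0.61 in MEFs + ALL + nilotinib over MEFs + nilotinib. It had a median of 0.02 and ran from -0.19 to 0.38 in MEFs + ALL + nilotinib over MEFs + DMSO, and for the drug alone, MEFs + nilotinib over MEFs + DMSO, a median of -0.02 and a range of -0.22 to 0.06. The medians over all 19938 genes were -0.01, 0.00 and 0.01 in the same comparisons. These 3 comparisons share arrays: MEFs + DMSO stands in the second and the last, MEFs + nilotinib in the first and the last. The shares of probesets called rest on few arrays: when single arrays were left out, the 223 probesets behind 0.627% became 8 to 233, the 66 behind 0.186% became 12 to 66, and the 0 for the drug alone became up to 57, the last without the first MEFs + nilotinib array. The lowest counts came without the third MEFs + DMSO array and without the second MEFs + nilotinib array. A missed threshold does not show that a gene kept its level, so the 95% intervals are given with the single genes.

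**Figure D3:**
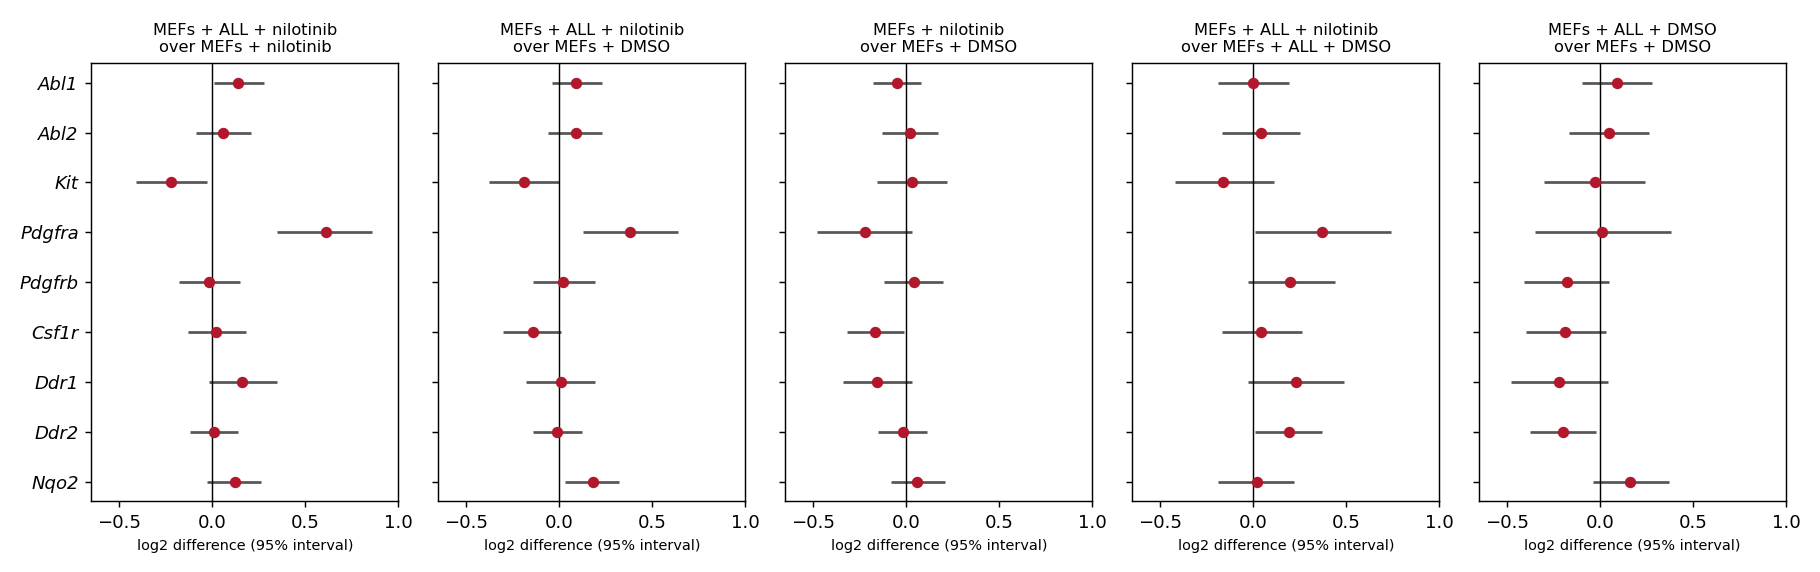
Points give the limma log2 difference and bars its 95% interval (x axis) for each of the 9 genes (y axis) in 5 comparisons. Pdgfra in MEFs + ALL + nilotinib over MEFs + nilotinib has the widest difference, 0.61 with an interval of 0.35 to 0.86, and the intervals are wider where the single MEFs + ALL + DMSO array enters.

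Among the PDGF receptors, Pdgfra (probeset 10522503) had the widest spread of the 9 genes, 0.89 log2 units over the 10 arrays. Its signal was 8.24, 7.99 and 8.34 in MEFs + ALL + nilotinib, 7.68, 7.46 and 7.62 in MEFs + nilotinib, 7.82 in MEFs + ALL + DMSO and 7.84, 7.92 and 7.66 in MEFs + DMSO. All 3 arrays of MEFs + ALL + nilotinib lay above all 7 other arrays, and the second of them, at 7.99, was the nearest to the rest. How many of all probesets part the arrays in this way was not counted. The group means were 8.19 ± 0.18 in MEFs + ALL + nilotinib, 7.59 ± 0.11 in MEFs + nilotinib, 7.82 in MEFs + ALL + DMSO and 7.81 ± 0.13 in MEFs + DMSO (SD over 3 arrays, no SD for the single array).

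The Pdgfra difference was 0.61 (SE 0.11, 1.52-fold, 95% interval 0.35 to 0.86) in MEFs + ALL + nilotinib over MEFs + nilotinib, and limma's adjusted p was 0.119. It was 0.38 (SE 0.11, 1.3-fold, interval 0.13 to 0.64, adjusted p = 0.165) over MEFs + DMSO and 0.37 (interval 0.01 to 0.74, adjusted p = 0.274) over MEFs + ALL + DMSO. For MEFs + nilotinib over MEFs + DMSO it was -0.22 (interval -0.48 to 0.03, adjusted p = 0.492), and for MEFs + ALL + DMSO over MEFs + DMSO 0.01 (interval -0.35 to 0.38, adjusted p = 0.971). The test for any difference over the 4 groups gave Pdgfra an adjusted p of 0.059, the lowest among the 9 genes and just outside the threshold of 0.05. When limma was given a weight for each array, Pdgfra was called in MEFs + ALL + nilotinib over MEFs + nilotinib (0.69, adjusted p = 0.0349) and over MEFs + DMSO (0.43, adjusted p = 0.039). Without the second MEFs + ALL + nilotinib array, the one apart on the second principal component, the test over the 4 groups gave it an adjusted p of 0.0264.

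Pdgfrb (probeset 10456046), the receptor typical of mural cells and activated fibroblasts, had a narrower spread, 0.33 log2 units over the 10 arrays. Its signal was 11.74, 11.88 and 11.75 in MEFs + ALL + nilotinib, 11.72, 11.77 and 11.92 in MEFs + nilotinib, 11.59 in MEFs + ALL + DMSO and 11.77, 11.78 and 11.75 in MEFs + DMSO. The groups with replicates overlapped and the lone array was the lowest. The difference was -0.02 (interval -0.18 to 0.15) in MEFs + ALL + nilotinib over MEFs + nilotinib and 0.02 (interval -0.14 to 0.19) over MEFs + DMSO, with adjusted p-values of 0.963 and 0.901. By RefSeq's gene order Pdgfrb is the direct neighbour of Csf1r, and Pdgfra that of Kit, with 0 protein-coding genes starting between the members of either pair.

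**Figure D4:**
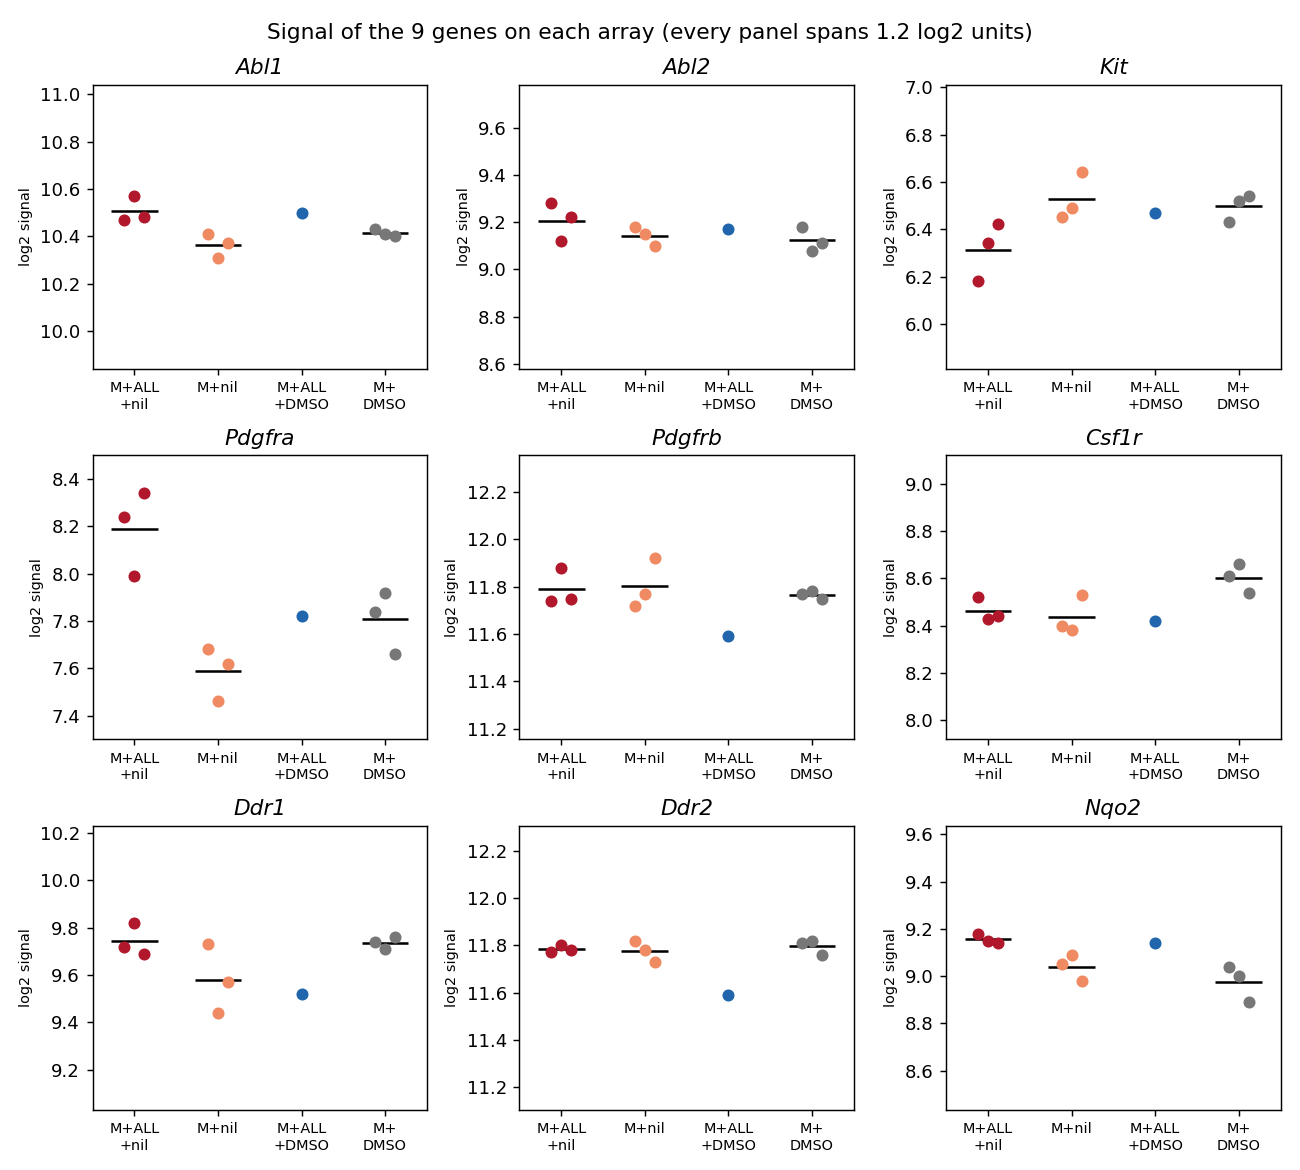
Each panel plots the log2 signal (y axis) of 1 gene on each of the 10 arrays by group (x axis), with a bar at the group mean, and every panel spans 1.2 log2 units. Pdgfra in MEFs + ALL + nilotinib (7.99 to 8.34) lies clear of the other groups, with a range of 0.89 over the 10 arrays, and the next widest range is 0.46, that of Kit. The share of all probesets that lie apart in this way was not counted.

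Kit and Csf1r, the remaining receptors of the class, had their lowest and highest arrays in different groups. For Kit the difference was -0.22 (SE 0.08, interval -0.41 to -0.03, adjusted p = 0.467) in MEFs + ALL + nilotinib over MEFs + nilotinib, on arrays where its signal lay -0.09 to 0.31 from the detection line. Csf1r had a signal of 8.52, 8.43 and 8.44 in MEFs + ALL + nilotinib, 8.40, 8.38 and 8.53 in MEFs + nilotinib, 8.42 in MEFs + ALL + DMSO and 8.61, 8.66 and 8.54 in MEFs + DMSO. All 7 arrays with the drug, the leukemia cells or both lay below the 3 MEFs + DMSO arrays, the closest at 8.53 against 8.54. How many of all probesets part the arrays in this way was not counted. The difference was -0.17 (SE 0.07, interval -0.32 to -0.01, adjusted p = 0.422) in MEFs + nilotinib over MEFs + DMSO, -0.14 (interval -0.30 to 0.01, adjusted p = 0.345) in MEFs + ALL + nilotinib over MEFs + DMSO, and -0.19 (interval -0.40 to 0.03, adjusted p = 0.243) in MEFs + ALL + DMSO over MEFs + DMSO. All 3 use the same MEFs + DMSO arrays. The summed macrophage markers of MEFs + nilotinib (6828 to 8063) overlapped those of MEFs + DMSO (6807 to 7695).

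The ABL kinases had narrow ranges, 0.26 for Abl1 and 0.21 for Abl2 over the 10 arrays. Abl1 (probeset 10471201), the cellular counterpart of the kinase in the Bcr/Abl fusion, had a signal of 10.47, 10.57 and 10.48 in MEFs + ALL + nilotinib, 10.41, 10.31 and 10.37 in MEFs + nilotinib, 10.50 in MEFs + ALL + DMSO and 10.43, 10.41 and 10.40 in MEFs + DMSO. The 4 arrays from dishes with leukemia cells, at 10.47 to 10.57, lay above the 6 arrays from dishes without them, at 10.31 to 10.43. The share of all probesets that part the arrays in this way was not counted, here or for the genes below. The difference was 0.14 (SE 0.06, interval 0.01 to 0.28, adjusted p = 0.495) in MEFs + ALL + nilotinib over MEFs + nilotinib, 0.09 (interval -0.04 to 0.23, adjusted p = 0.467) over MEFs + DMSO, and 0.09 (interval -0.10 to 0.28, adjusted p = 0.509) in MEFs + ALL + DMSO over MEFs + DMSO. The MEFs + ALL + DMSO array, which held the B-lineage transcripts, lay within the MEFs + ALL + nilotinib range, and whether the probeset also reads the Bcr/Abl transcript was not tested. Abl2 (probeset 10350823), its actin-binding paralog, ran from 9.12 to 9.28 in MEFs + ALL + nilotinib, from 9.10 to 9.18 in MEFs + nilotinib, at 9.17 in MEFs + ALL + DMSO and from 9.08 to 9.18 in MEFs + DMSO. All 3 replicated groups of Abl2 overlapped, and the adjusted p over the 4 groups was 0.749.

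Of the collagen receptors, Ddr2 (probeset 10359929), which binds fibrillar collagens on mesenchymal cells, had a signal of 11.77, 11.80 and 11.78 in MEFs + ALL + nilotinib, 11.82, 11.78 and 11.73 in MEFs + nilotinib, 11.59 in MEFs + ALL + DMSO and 11.81, 11.82 and 11.76 in MEFs + DMSO. The 9 arrays of the replicated groups lay within 11.73 to 11.82, and the lone array lay below them. The Ddr2 difference in MEFs + ALL + DMSO over MEFs + DMSO was -0.20 (SE 0.08, interval -0.38 to -0.02, adjusted p = 0.14). It passed the threshold after quantile normalization (-0.34, adjusted p = 0.0389) and with a trended, robust prior (-0.20, adjusted p = 0.047). Ddr1 (probeset 10450579), which is best known from epithelium, had a signal of 9.72, 9.82 and 9.69 in MEFs + ALL + nilotinib, 9.73, 9.44 and 9.57 in MEFs + nilotinib, 9.52 in MEFs + ALL + DMSO and 9.74, 9.71 and 9.76 in MEFs + DMSO. The MEFs + nilotinib arrays reached further down than those of MEFs + ALL + nilotinib and MEFs + DMSO but overlapped both. The difference was 0.16 (interval -0.02 to 0.35, adjusted p = 0.575) in MEFs + ALL + nilotinib over MEFs + nilotinib and -0.16 (interval -0.34 to 0.03, adjusted p = 0.499) in MEFs + nilotinib over MEFs + DMSO. Of 7 epithelial markers, 2 were detected in MEFs + ALL + nilotinib, 3 in MEFs + nilotinib, 4 in MEFs + ALL + DMSO and 3 in MEFs + DMSO. Krt8 and Krt18 were detected in every group, Cldn7 in MEFs + nilotinib and MEFs + DMSO, and Krt14 and Krt5 in none. Epcam and Cdh1 were detected on the MEFs + ALL + DMSO array but not in the replicated groups.

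Nqo2 (probeset 10404496) was the only protein of the set that is no kinase. Its signal was 9.18, 9.15 and 9.14 in MEFs + ALL + nilotinib, 9.05, 9.09 and 8.98 in MEFs + nilotinib, 9.14 in MEFs + ALL + DMSO and 9.04, 9.00 and 8.89 in MEFs + DMSO. As with Abl1, the 4 arrays from dishes with leukemia cells (9.14 to 9.18) lay above the 6 without (8.89 to 9.09). The difference was 0.18 (SE 0.06, 1.13-fold, interval 0.03 to 0.32, adjusted p = 0.224) in MEFs + ALL + nilotinib over MEFs + DMSO, 0.12 (interval -0.03 to 0.26, adjusted p = 0.613) over MEFs + nilotinib, and 0.16 (interval -0.04 to 0.37, adjusted p = 0.278) in MEFs + ALL + DMSO over MEFs + DMSO. No Nqo2 difference passed the threshold.

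Counted by overlap of the arrays, 4 of 9 genes did not overlap between MEFs + ALL + nilotinib and MEFs + nilotinib (44.4%, against 14.4% of all probesets): Abl1, Pdgfra and Nqo2 lay higher and Kit lower. Between MEFs + ALL + nilotinib and MEFs + DMSO 5 of 9 did not overlap (55.6%, against 24.7% of all probesets), with Csf1r lower besides. For MEFs + nilotinib and MEFs + DMSO this held for 1 of 9 (11.1%, against 20.6% of all probesets), Csf1r. Over the 19938 genes with a probeset of their own, the shares were higher than over all probesets: 16.1%, 27.9% and 21.8% in the same order. The counts of the 9 genes depended on the scaling of the arrays: quantile normalization gave 3, 3 and 5 genes in the same order, beside 13.7%, 24.0% and 19.4% of all probesets, and centring the arrays on their medians 5, 3 and 2, beside 14.1%, 25.6% and 20.6%. Kit counts here at the detection line, and without it the deposited values gave 3, 4 and 1. None of the genes that stood apart in this way passed the limma threshold.

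A further test asked whether the drug difference in dishes with leukemia cells departs from that in dishes without, as an interaction. It called 0 of 9 genes beside 3.95% of all probesets, and at an unadjusted limma p under 0.05 there were 2 of 9 genes beside 19.5%. Pdgfra had an interaction of 0.59 (interval 0.15 to 1.04, adjusted p = 0.151) and Ddr1 of 0.39 (interval 0.07 to 0.70, adjusted p = 0.181), and the other 7 lay between -0.19 and 0.21. This test rests on the single MEFs + ALL + DMSO array with its B-lineage transcripts.

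Around the 9 genes, 64 genes of their pathways were examined in 7 lists, covering ligands, collagens, adaptors, relatives, efflux pumps and other kinases that the drug binds. In MEFs + nilotinib over MEFs + DMSO 0 of 64 were called, with 14 at an unadjusted limma p under 0.05, as were 11.2% of all probesets. In MEFs + ALL + nilotinib over MEFs + nilotinib 1 of 64 was called, beside 0.186% of all probesets. In MEFs + ALL + nilotinib over MEFs + DMSO 3 of 64 were called, of which 2 rose and 1 fell, where 0.503% of all probesets rose and 0.124% fell. MEFs + ALL + DMSO over MEFs + DMSO called 12 of 64, of which 1 rose and 11 fell, where 6.67% of all probesets rose and 3.59% fell.

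**Figure D5:**
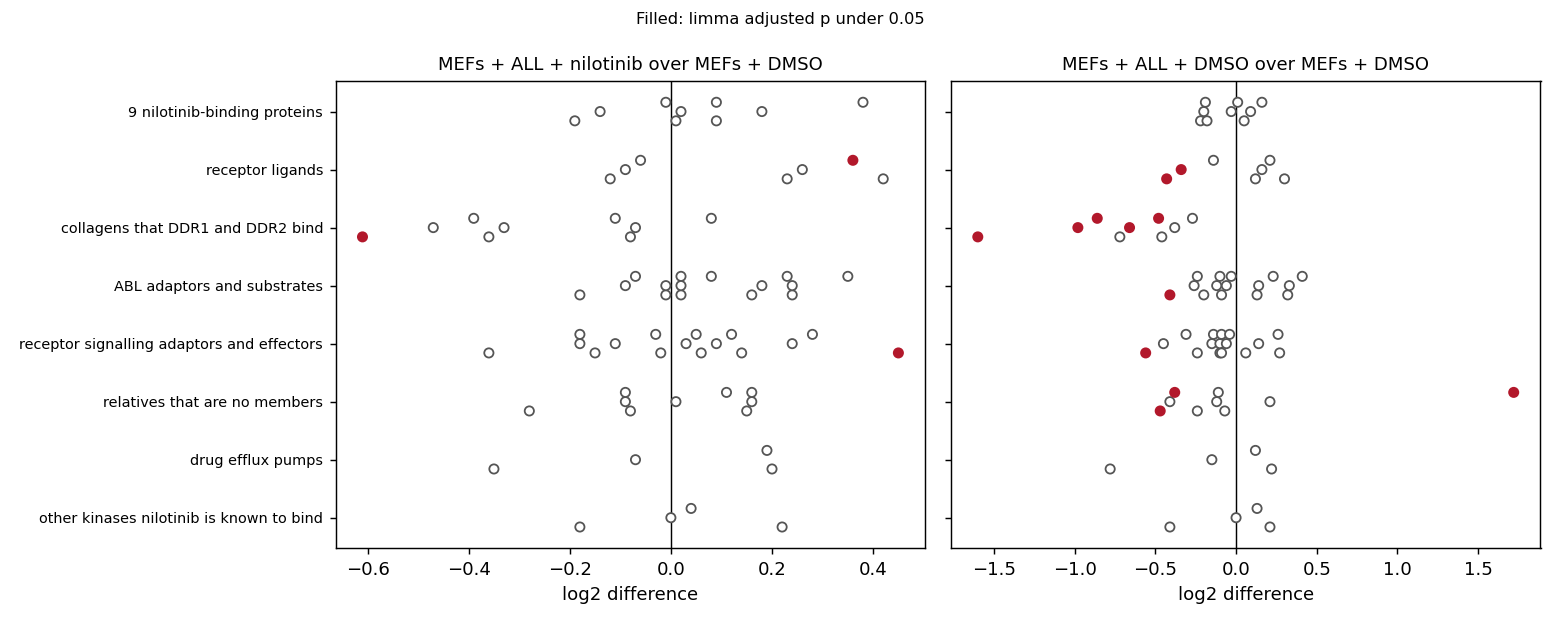
Each point is 1 gene, placed by its limma log2 difference (x axis) and its list (y axis), with the 9 nilotinib-binding proteins on the top row, for MEFs + ALL + nilotinib over MEFs + DMSO (left) and MEFs + ALL + DMSO over MEFs + DMSO (right). Filled points passed an adjusted p of 0.05: 3 of 64 pathway genes on the left, 12 of 64 on the right and 0 of 9 in the top row of both panels.

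Of the 7 receptor ligands, 1 rose in MEFs + ALL + nilotinib over MEFs + DMSO, where 0.503% of all probesets rose. The list had a median of 0.23 there, against 0.00 over all genes. Over MEFs + nilotinib 0 of 7 were called (2 at an unadjusted limma p under 0.05, beside 9.27% of all probesets) and the median was 0.00. The gene that rose was Csf1, a ligand of CSF1R, with 11.55, 11.64 and 11.54 in MEFs + ALL + nilotinib, 11.32, 11.36 and 11.30 in MEFs + nilotinib, 11.34 in MEFs + ALL + DMSO and 11.22, 11.23 and 11.20 in MEFs + DMSO. The groups with replicates did not overlap for Csf1, which was 0.36 higher on the log2 scale (SE 0.06, 1.28-fold, adjusted p = 0.0391) over MEFs + DMSO, while the 0.24 over MEFs + nilotinib had an adjusted p of 0.21. The call was lost when any 1 array other than MEFs + ALL + DMSO was left out (adjusted p up to 0.168), with only the 2 groups fitted (0.0906) and after quantile normalization (0.053). The ligand of KIT, Kitl, had a difference of 0.42 (adjusted p = 0.166) and Il34, which also binds CSF1R, of 0.26 (adjusted p = 0.167) over MEFs + DMSO.

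Among the PDGF genes, the calls came from the comparison with the lone array. Pdgfc (10.92 in MEFs + ALL + DMSO, against 11.39, 11.36 and 11.32 in MEFs + DMSO) fell by 0.43 on the log2 scale with an adjusted p of 0.0149. Pdgfa (9.51 in MEFs + ALL + DMSO, against 9.83, 9.85 and 9.85 in MEFs + DMSO) fell by 0.34 with an adjusted p of 0.038. Both encode ligands of PDGFRA. The Pdgfa call held only without the second MEFs + ALL + nilotinib array or the first MEFs + nilotinib array, and reached an adjusted p of 0.0958 otherwise, while the Pdgfc call held without each of the other 9 arrays. In MEFs + ALL + nilotinib over MEFs + DMSO the differences were -0.12 for Pdgfc, -0.09 for Pdgfa, -0.06 for Pdgfb and 0.23 for Pdgfd, none of them called.

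Of the 9 collagen genes whose products DDR1 and DDR2 bind, 1 fell in MEFs + ALL + nilotinib over MEFs + DMSO and 1 over MEFs + nilotinib. Of all probesets, 0.124% fell in the first comparison and 0.186% were called, in either direction, in the second. The list had a median of -0.33 in MEFs + ALL + nilotinib over MEFs + DMSO, of 0.05 in MEFs + ALL + nilotinib over MEFs + nilotinib and of -0.21 in MEFs + nilotinib over MEFs + DMSO, where 0 of 9 were called and 5 of 9 had an unadjusted limma p under 0.05 beside 11.2% of all probesets. Col10a1, the collagen of hypertrophic cartilage, had 9.62, 9.81 and 9.78 in MEFs + ALL + nilotinib, 10.36, 10.56 and 10.60 in MEFs + nilotinib, 8.74 in MEFs + ALL + DMSO and 10.38, 10.33 and 10.32 in MEFs + DMSO. The arrays with leukemia cells were all below those without, and the lone MEFs + ALL + DMSO array was the lowest. Col10a1 fell by 0.61 (SE 0.08, adjusted p = 0.0275) against MEFs + DMSO and by 0.77 (adjusted p = 0.0179) against MEFs + nilotinib. Both calls were lost with only the 2 groups fitted (adjusted p = 0.077 and 0.165), and when any 1 array was left out other than MEFs + ALL + DMSO, the second MEFs + ALL + nilotinib array or the first MEFs + nilotinib array (adjusted p up to 0.13 and 0.0973).

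In MEFs + ALL + DMSO over MEFs + DMSO, 5 of the 9 collagen genes fell and the median was -0.66, against -0.07 over all genes. Of all probesets, 3.59% fell and 6.67% rose in this comparison. Col10a1 fell by 1.60 (SE 0.12, adjusted p = 5.84e-05), Col5a2 by 0.86 (adjusted p = 0.0032), Col2a1 by 0.98 (adjusted p = 0.039), Col1a2 by 0.66 (adjusted p = 0.0419) and Col4a1 by 0.48 (adjusted p = 0.0294). Of the 10 fibroblast markers, 1 fell (Col1a2) and 3 rose there (Thy1, Lum and S100a4), with differences from -0.72 to 1.07. Their summed signal was 53066 in MEFs + ALL + DMSO, against 62551 to 63991 in MEFs + DMSO. Col1a1, Col1a2 and Col3a1 stand in both lists, so the lower sum is no measure apart from the collagens. The calls of Col10a1 and Col5a2 held without each of the other 9 arrays. Those of Col2a1, Col1a2 and Col4a1 were lost without the third MEFs + ALL + nilotinib array or any 1 MEFs + DMSO array, that of Col1a2 also without the first MEFs + ALL + nilotinib array, and those of Col2a1 and Col1a2 also without the third MEFs + nilotinib array, with adjusted p-values up to 0.0891, 0.0916 and 0.0747. After quantile normalization the adjusted p of Col1a2 was 0.0568.

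Of 16 receptor adaptors and effectors, 1 rose in MEFs + ALL + nilotinib over MEFs + DMSO, where 0.503% of all probesets rose. The median was 0.04, with 5 of 16 at an unadjusted limma p under 0.05 beside 16.2% of all probesets. The called gene was Cblb, a ubiquitin ligase that turns down receptor tyrosine kinases. It had 9.71, 9.71 and 9.79 in MEFs + ALL + nilotinib, 9.41, 9.27 and 9.34 in MEFs + nilotinib, 9.56 in MEFs + ALL + DMSO and 9.28, 9.31 and 9.27 in MEFs + DMSO. The MEFs + ALL + nilotinib arrays lay above all others, with a difference of 0.45 (SE 0.06, 1.37-fold, adjusted p = 0.0275) over MEFs + DMSO and of 0.40 (adjusted p = 0.065) over MEFs + nilotinib. The difference over MEFs + nilotinib passed the threshold with centred arrays (adjusted p = 0.0437), a trended, robust prior (0.0223) and array weights (0.0292). The call over MEFs + DMSO was lost with only the 2 groups fitted (adjusted p = 0.077) and when any 1 array other than MEFs + ALL + DMSO and the first MEFs + nilotinib array was left out (up to 0.127). Spry4, a feedback inhibitor of receptor kinase signalling, fell by 0.56 (adjusted p = 0.0081) in MEFs + ALL + DMSO (7.88) against MEFs + DMSO (8.41, 8.51 and 8.40), and was 0.53 higher (adjusted p = 0.0147) in MEFs + ALL + nilotinib (8.38, 8.46 and 8.40) over MEFs + ALL + DMSO.

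Of 15 adaptors and substrates of ABL, 0 were called in MEFs + ALL + nilotinib over MEFs + DMSO (median 0.02, with 5 at an unadjusted limma p under 0.05 beside 16.2% of all probesets) and 0 in MEFs + nilotinib over MEFs + DMSO (3 at an unadjusted p under 0.05 beside 11.2%). Dok1, an adaptor that ABL phosphorylates, fell by 0.41 (adjusted p = 0.0478) in MEFs + ALL + DMSO (10.12) against MEFs + DMSO (10.52, 10.58 and 10.50). It was 0.49 higher (adjusted p = 0.0419) in MEFs + ALL + nilotinib (10.63, 10.70 and 10.50) over MEFs + ALL + DMSO. The fall was lost without the first or the third MEFs + ALL + nilotinib array, the third MEFs + nilotinib array or any 1 MEFs + DMSO array (adjusted p up to 0.114). The higher value over MEFs + ALL + DMSO was lost without the first or the second MEFs + ALL + nilotinib array, the third MEFs + nilotinib array or any 1 MEFs + DMSO array (up to 0.0944), and after quantile normalization (0.0527).

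Among 9 relatives of the set, 0 were called in MEFs + ALL + nilotinib over MEFs + DMSO (median 0.01, with 2 at an unadjusted limma p under 0.05 beside 16.2% of all probesets). Flt3, the class III receptor of lymphoid and myeloid progenitors, was 7.92 in MEFs + ALL + DMSO, against 5.91 to 6.41 in MEFs + ALL + nilotinib, 6.29 to 6.52 in MEFs + nilotinib and 6.11 to 6.37 in MEFs + DMSO. All 3 MEFs + DMSO arrays lay below their detection lines, so its rise in MEFs + ALL + DMSO over MEFs + DMSO is a bound: at least 2.93-fold, with each MEFs + DMSO array raised to its line (adjusted p = 0.000812 for the values as measured), on the array where 8 of 11 pro-B and B cell markers were detected. Nqo1, the relative of Nqo2, was 9.89 in MEFs + ALL + DMSO, against 10.30, 10.29 and 10.24 in MEFs + DMSO. Nqo1 fell by 0.38 (adjusted p = 0.0279) there, where Nqo2 had a difference of 0.16, and was 0.54 higher (adjusted p = 0.00768) in MEFs + ALL + nilotinib (10.43, 10.38 and 10.49) over MEFs + ALL + DMSO. The Src family kinase Yes1 fell by 0.47 (adjusted p = 0.0265) in MEFs + ALL + DMSO over MEFs + DMSO. The falls of Nqo1 and Yes1 were lost when any 1 MEFs + DMSO array was left out (adjusted p up to 0.077 and 0.0668).

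Neither the efflux pumps nor the other kinases known to bind nilotinib held a call with all 10 arrays. Of all probesets, 0% to 10.3% were called, depending on the comparison. Of 4 pumps, 0 were called in any of the comparisons, with 1 at an unadjusted limma p under 0.05 in MEFs + ALL + nilotinib over MEFs + DMSO, where 16.2% of all probesets were. Abcg2, a pump that carries many kinase inhibitors, had 9.30, 9.14 and 9.34 in MEFs + ALL + nilotinib, 9.68, 8.78 and 8.97 in MEFs + nilotinib, 8.83 in MEFs + ALL + DMSO and 9.58, 9.61 and 9.64 in MEFs + DMSO. Its MEFs + nilotinib arrays spread widely, with the first above all others and the second the lowest of the 10. The difference of Abcg2 was -0.35 (adjusted p = 0.428) in MEFs + ALL + nilotinib over MEFs + DMSO and -0.47 (adjusted p = 0.437) in MEFs + nilotinib over MEFs + DMSO, and without the first MEFs + nilotinib array the second of these was -0.73 and passed the threshold (adjusted p = 0.0496). When single arrays were left out, that Abcg2 difference ran from -0.73 to -0.28. The P-glycoprotein gene Abcb1b had a difference of 0.20 (adjusted p = 0.41) in MEFs + ALL + nilotinib over MEFs + DMSO. Of the other bound kinases, 4 were measured and 0 were called in any comparison. In MEFs + ALL + nilotinib over MEFs + DMSO 1 had an unadjusted limma p under 0.05, beside 16.2% of all probesets. There the stress kinase genes Mapk11 and Map3k20 had differences of 0.22 (adjusted p = 0.232) and -0.18 (adjusted p = 0.354).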

How the data were processed

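The authors hybridised total RNA of 10 dishes of irradiated MEFs to Affymetrix Mouse Gene 1.0 ST arrays. They deposited log2 signals, which the study's supplement calls RMA-normalized. The submitters' notes name Partek, its version being not given in the sources used here. In all, the table holds 35557 probesets with 0 missing values, array medians of 6.94 to 7.01 and correlations between arrays of 0.975 to 0.995. The platform annotation gives 1 gene symbol to 21789 probesets, several to 1621 and none to 12147. Gene IDs of 21698 matched RefSeq (GRCm38.p6, used for names and neighbours), and 0 symbols changed.

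Groups were compared by limma 3.58.1 under R 4.3.3, using lmFit and eBayes with 4 group means and 1 spread shared by all arrays, adjusted by Benjamini-Hochberg over all probesets at 0.05. Differences are on the log2 scale. The tests were tried on simulated data first. The 9 genes and all lists were chosen with earlier results of these data known. Named were all 9 genes and, of each pathway list, the genes called in any comparison or else those with the largest differences in MEFs + ALL + nilotinib over MEFs + DMSO. Other ligands were added for context. Lck had no probeset of its own. Alternatives were fitting only the 2 groups compared, quantile normalization, centring on medians, a trended robust prior, array weights, a filter on dim probesets, the mean of a gene's probesets, a replicate block and leaving out each array. The number of arrays limits the precision.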

Additional observations from a re-analysis of the deposited data

Results flagged for a closer look

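The interaction, the drug difference with leukemia cells minus that without, passed limma's threshold for 5 of the 64 pathway genes and for 0 of the 9 nilotinib-binding proteins, beside 3.95% of all probesets. It was 0.83 for Col10a1 (adjusted p = 0.0136), 0.67 for Col5a2 (adjusted p = 0.0464), 0.53 for Spry4 (adjusted p = 0.0432), 0.50 for Nqo1 (adjusted p = 0.0373) and -1.90 for Flt3 (adjusted p = 0.00228). The size for Flt3 has no exact value, since all 3 MEFs + DMSO arrays, 2 MEFs + ALL + nilotinib arrays and 1 MEFs + nilotinib array lay below their detection lines for it. All 5 rest on the single MEFs + ALL + DMSO array, on which the pro-B and B cell markers summed to 4625, against 748 to 824 in MEFs + DMSO, and the part of these transcripts was not tested. The calls of Col10a1 and Flt3 held without each of the other 9 arrays. Those of Col5a2 and Spry4 held only without the first MEFs + nilotinib array (adjusted p up to 0.108 for each otherwise), and that of Nqo1 only without the second MEFs + ALL + nilotinib or the second MEFs + nilotinib array (up to 0.101 otherwise, and 0.0572 with centred arrays).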

How the results depend on the processing

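Of the 1080 values of the 9 genes under the alternatives, 1036 kept their direction and their side of the threshold, 10 passed it and 34 turned sign, all of these uncalled. Of 9 genes, 8 were detected under every detection line tried and without each single array. Array weights called 1 of 9 in MEFs + ALL + nilotinib over MEFs + DMSO, 1 over MEFs + nilotinib, 1 in the interaction and 1 over the 4 groups, in each case Pdgfra. Over the 4 groups 1 of 9, Pdgfra, was also called with quantile normalization, with arrays centred on their medians, with a trended robust prior and without the second MEFs + ALL + nilotinib array (range 0 to 1 when single arrays were left out). Quantile normalization and the trended robust prior each called 1 of 9, Ddr2, in MEFs + ALL + DMSO over MEFs + DMSO. With the drug alone over the solvent, and in MEFs + ALL + nilotinib over MEFs + ALL + DMSO, limma called 0 of 9 under all settings, beside 1 and 2 of 9 at an unadjusted p under 0.05. For Pdgfra the difference ran from 0.53 to 0.71 in MEFs + ALL + nilotinib over MEFs + nilotinib (adjusted p from 0.0349 to 0.335) and from 0.31 to 0.49 over MEFs + DMSO (adjusted p from 0.039 to 0.405). The counts of genes whose arrays do not overlap, given with the report under other scalings, were recomputed so after the data had been seen. The cause of these changes was not tested.

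The differences of the 9 genes that turned sign were close to 0 throughout. Quantile normalization gave, with the drug alone over the solvent, 0.00 for Abl2 and -0.04 for Pdgfrb. It gave -0.03 for Pdgfrb and -0.03 for Ddr1 in MEFs + ALL + nilotinib over MEFs + DMSO, 0.01 for Pdgfrb over MEFs + nilotinib, and -0.05 for Abl2, 0.05 for Kit and -0.06 for Pdgfra in MEFs + ALL + DMSO over MEFs + DMSO, besides 0.04 for the interaction of Nqo2. Array weights gave -0.01 for Pdgfrb and -0.02 for Ddr1 in MEFs + ALL + nilotinib over MEFs + DMSO, -0.02 for Abl1 over MEFs + ALL + DMSO and -0.02 for Pdgfra in MEFs + ALL + DMSO over MEFs + DMSO. Centring on medians gave Ddr2 0.00 with the drug alone and 0.02 in MEFs + ALL + nilotinib over MEFs + DMSO. When single arrays were left out, the drug alone gave 0.00 to 0.05 for Abl2, -0.02 to 0.07 for Kit, -0.02 to 0.08 for Pdgfrb and -0.04 to 0.01 for Ddr2. MEFs + ALL + nilotinib over MEFs + DMSO gave -0.02 to 0.05 for Pdgfrb, -0.03 to 0.04 for Ddr1 and -0.03 to 0.00 for Ddr2, and over MEFs + nilotinib -0.06 to 0.04 for Pdgfrb, 0.00 to 0.07 for Csf1r and -0.01 to 0.03 for Ddr2. Abl1 ran from -0.03 to 0.02 over MEFs + ALL + DMSO, Pdgfra from -0.06 to 0.07 in MEFs + ALL + DMSO over MEFs + DMSO, and the interaction of Abl2 from -0.02 to 0.06.

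Of the 64 pathway genes, 3 were called in MEFs + ALL + nilotinib over MEFs + DMSO, 6 with array weights, 0 with only the 2 groups fitted and 0 to 3 when single arrays were left out. In MEFs + ALL + nilotinib over MEFs + nilotinib 1 was called, 2 with centred arrays, 2 with the trended robust prior, 2 with array weights, 0 with only the 2 groups fitted and 0 to 1 when single arrays were left out. In MEFs + nilotinib over MEFs + DMSO the 0 called became 0 to 2, the 2 without the first MEFs + nilotinib array. The 12 called in MEFs + ALL + DMSO over MEFs + DMSO became 22 with array weights and 5 to 16 when single arrays were left out, and the 5 in MEFs + ALL + nilotinib over MEFs + ALL + DMSO became 9 with the trended robust prior and 10 with array weights. The interaction's 5 became 8 with the trended robust prior, 9 with array weights and 2 to 12 when single arrays were left out. Over the 4 groups 7 became 15 with array weights and 3 to 14 when single arrays were left out.

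The replicate numbers name dishes, and same-numbered arrays did not deviate together (correlations of -0.29 to 0.24). With the replicate number as a block, 0 of the 64 pathway genes were called in MEFs + ALL + nilotinib over MEFs + DMSO and 0 over MEFs + nilotinib, and the block called 0 of the 9 genes in the 3 comparisons between groups with replicates, as without it.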
